A study of Homo sapiens with 9 samples.

Results

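Activins are dimers of inhibin β subunits, and the genes examined here encode those subunits, the proteins that bind activins, 2 activin receptors and an inhibitor of the signal. The 9 genes INHBA, INHBB, INHBC, INHBE, FST, FSTL3, ACVR1B, ACVR2A and SMAD7 were picked by symbol from the 57820 named genes of the count table. INHBE and FST were chosen by their measured values in these libraries: INHBE because it was lower in RBM5 KO and higher in RBM5 OE, and FST because it was higher in RBM5 OE. Those contrasts are therefore given as a description, with no test. The 9 RNA-seq libraries come from MOLM13, a human AML line with a KMT2A (MLL) rearrangement, as 3 biological replicates of each of 3 groups. CTRL cells carried a non-targeting sgRNA and are labelled wild type. RBM5 KO cells carried Cas9 and an sgRNA against coding exons of RBM5, and the record describes no single clone. RBM5 OE cells received an RBM5 cDNA by lentivirus, so that they differ from CTRL in the vector as well as in RBM5. In the paper's methods, Cas9 lines were selected with blasticidin and sgRNA-carrying cells with puromycin, while the cDNA vector carried a Venus reporter. RBM5 OE may therefore also differ from CTRL in Cas9, the sgRNA and drug selection, which cannot be told apart from RBM5. Apart from such selection, no drug treatment is described for any group, and the labels state no time after transduction. The paper's splicing methods and a figure legend give different times, so the time of these libraries is not settled here. RBM5 itself, an RNA-binding protein of the spliceosome, had a CTRL level of 117 ± 4.68 CPM (counts scaled to library size by TMM; mean ± SD of 3 libraries). The RBM5 KO libraries lay lower, at 74.4 ± 4.41 CPM, and the RBM5 OE libraries higher, at 403 ± 20.2, with no overlap between groups. These mRNA levels do not measure RBM5 protein. RBM6 and antisense genes overlap RBM5 in the annotation, and the libraries were counted without strand.

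Activin A is a dimer of the INHBA product, and INHBB, INHBC and INHBE encode the βB, βC and βE subunits. INHBC and INHBE are best known from the liver, where INHBE encodes a hepatokine, and INHBE is also known as a gene induced by the transcription factor ATF4 in the integrated stress response. Activin A or B binds a type II receptor such as ACVR2A, which recruits and phosphorylates the type I receptor ACVR1B. ACVR1B phosphorylates SMAD2 and SMAD3, which enter the nucleus with SMAD4. Follistatin (FST) and its relative FSTL3 wrap the ligand and block receptor binding. SMAD7 is an inhibitory SMAD that is itself induced by the pathway and closes a feedback loop. In blood, activin A is known as a product of monocytes and macrophages and as a factor that drives erythroid differentiation.

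Total expected counts were 25522952 to 26395707 per library in CTRL, 27304746 to 27871988 in RBM5 KO and 25969224 to 27826547 in RBM5 OE. CTRL replicate 3 and RBM5 KO replicate 1 stood apart from the other replicates of their groups. The chi-square per gene between replicates was 16.9 and 23.0 for pairs with CTRL replicate 3 against 9.24 for the other CTRL pair. It was 41.3 and 35.3 for pairs with KO replicate 1 against 10.1, and 3.92 to 8.10 within RBM5 OE. Values without both libraries are given where they matter. All 8 myeloid markers of MOLM13 (CD33, CSF1R, FLT3, MPO, LYZ, ITGAM, SPI1 and CD68) were detected, with a summed level of 1895 to 2053 TPM (transcript abundance scaled by length and library) in CTRL, 2557 to 2932 in RBM5 KO and 1311 to 1348 in RBM5 OE. LYZ, the lysozyme gene, carried most of that difference, at 1090 to 1279 TPM in CTRL, 1864 to 2070 in RBM5 KO and 481 to 499 in RBM5 OE. The other 7 markers summed to 774 to 804 TPM in CTRL, 693 to 862 in RBM5 KO and 818 to 850 in RBM5 OE. None of 8 hepatocyte markers (ALB, APOA1, APOA2, APOB, TTR, FGB, AHSG and SERPINC1) reached 1 TPM in any library, and 4 of them had no count in all 9. Their summed level was at most 1.11 TPM in CTRL, with maxima of 0.49 in RBM5 KO and 0.30 in RBM5 OE. Of 8 fibroblast and epithelial markers (COL1A1, COL1A2, COL3A1, DCN, LUM, EPCAM, KRT18 and KRT8), 3 passed 1 TPM and 2 had no count, with sums of 10.6 to 15.98 TPM in CTRL, 14.9 to 16.4 in RBM5 KO and 11.1 to 12.9 in RBM5 OE. The part of these marker levels in the results below was not tested. In bulk RNA, fewer cells with a transcript and less of it per cell cannot be told apart.

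Promoter windows are shown for 3 members that were higher in RBM5 OE and have a window in the RefSeq table: FST, INHBA and SMAD7. Each window holds 250 bases before and 50 after the RefSeq start (GRCh38.p14), and each matched 1 place in GRCh37: FST on the plus strand at chr5:52776209-52776508, INHBA on the minus strand at chr7:41742639-41742938 and SMAD7 on the minus strand at chr18:46469128-46469427. They read 5′ to 3′ in lower case, and capitals mark the only motif match found.
FST: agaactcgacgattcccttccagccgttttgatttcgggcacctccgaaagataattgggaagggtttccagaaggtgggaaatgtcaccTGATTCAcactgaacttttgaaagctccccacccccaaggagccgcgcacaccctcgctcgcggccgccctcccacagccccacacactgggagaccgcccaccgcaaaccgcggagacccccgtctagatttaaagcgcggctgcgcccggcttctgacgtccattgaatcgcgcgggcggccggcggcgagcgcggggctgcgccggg
INHBA: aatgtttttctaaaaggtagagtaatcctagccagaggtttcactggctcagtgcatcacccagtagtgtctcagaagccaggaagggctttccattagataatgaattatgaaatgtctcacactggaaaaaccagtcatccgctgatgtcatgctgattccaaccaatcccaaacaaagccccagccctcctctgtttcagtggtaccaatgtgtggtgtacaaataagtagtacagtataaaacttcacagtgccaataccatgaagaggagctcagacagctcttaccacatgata
SMAD7: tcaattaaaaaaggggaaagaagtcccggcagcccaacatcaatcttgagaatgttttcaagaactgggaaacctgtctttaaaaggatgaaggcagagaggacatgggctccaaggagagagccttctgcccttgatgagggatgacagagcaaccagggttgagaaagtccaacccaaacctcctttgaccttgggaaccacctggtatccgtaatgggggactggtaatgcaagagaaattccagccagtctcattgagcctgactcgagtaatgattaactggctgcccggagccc
Both strands were searched for the C/EBP-ATF composite element (TGATGNAAN), the AP-1 site (TGANTCA), the SMAD palindrome (GTCTAGAC) and the CRE (TGACGTCA). The single match among the 8 members with a window was an AP-1 match in FST, TGATTCA at positions 91 to 97 of the window, −160 from the start, and it overlapped no other motif. Of 35114 promoters in the table, 7.71% held an AP-1 match, 3.61% the composite element, 1.85% the CRE and 0.202% the SMAD palindrome. The windows of INHBA and SMAD7, and those of INHBB, INHBC, FSTL3, ACVR1B and ACVR2A, did not hold these letters. However, the windows of SMAD7, INHBA, ACVR1B and ACVR2A lie inside the annotated gene, downstream of its 5′ end. That end is at chr18:46477335 for SMAD7 and chr7:41745432 for INHBA, and the sequence before it was not searched. The absence of a match therefore covers these windows only. The windows differed in composition, with 63.7% G and C in FST, 43.3% in INHBA and 49.3% in SMAD7.

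Per transcript length, the most abundant member in CTRL was INHBA at 12.2 ± 2.09 TPM (SD, n = 3), followed by ACVR1B at 7.69 ± 0.612. INHBE at 5.71 ± 3.17, SMAD7 at 4.91 ± 0.290 and FSTL3 at 4.56 ± 1.36 TPM came next, and these 3 did not differ beyond their spread. ACVR2A at 0.417 ± 0.040, INHBC at 0.31 ± 0.231 and FST at 0.30 ± 0.165 TPM were low and overlapped each other. INHBB was at 0.00667 TPM, from 1 count in 1 library. In RBM5 KO, the level of INHBE was 1.21 ± 0.349 TPM, next to FST at 1.13 ± 0.374, and INHBA stayed first at 14.2 ± 0.653. In RBM5 OE, INHBE came first at 24.5 ± 4.71 TPM, ahead of INHBA at 19.3 ± 0.278 and SMAD7 at 14.1 ± 1.39. In that group every INHBE value, from 20.96 TPM upward, lay above the highest INHBA value of 19.58 TPM. The expected counts behind 1 TPM of INHBE varied from 22.4 to 50.2 between libraries, so this order carries that limit.

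**Figure D1:**
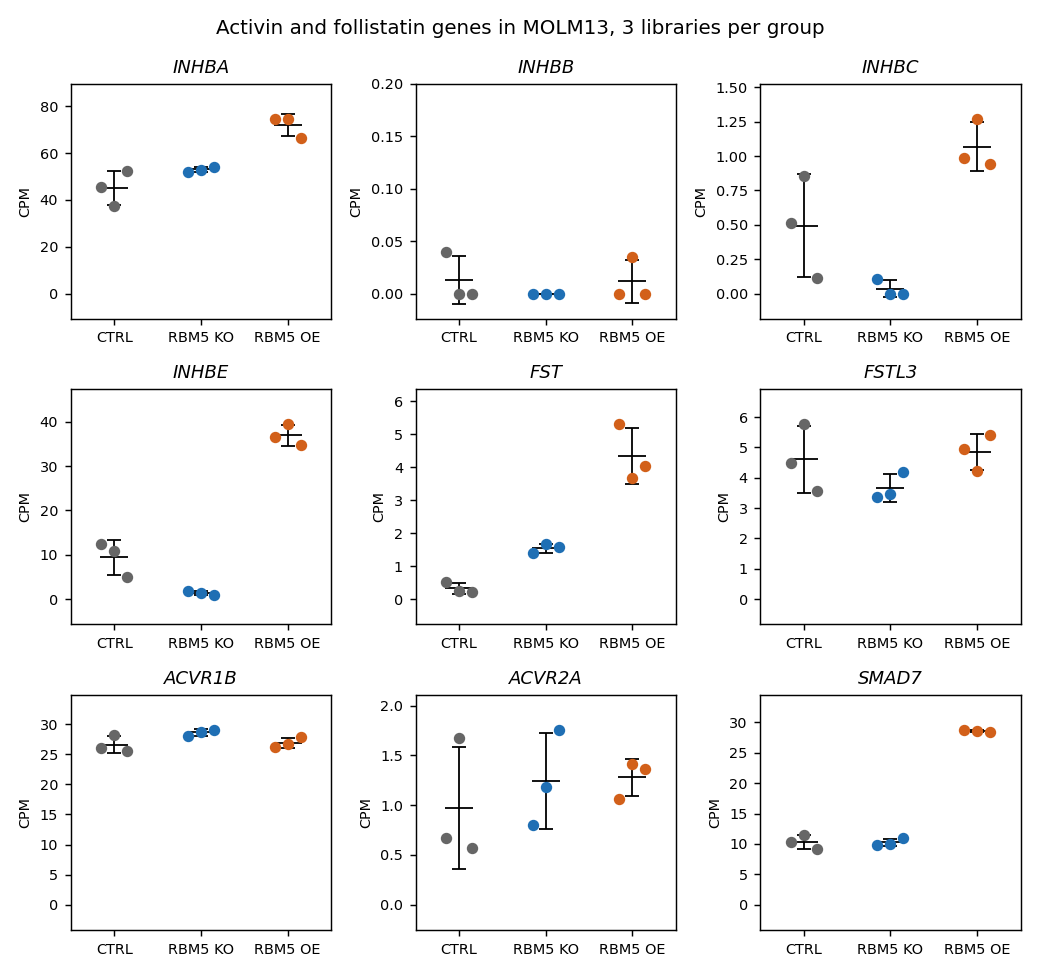
Level of the 9 genes in CPM (vertical axis, linear, own scale per gene) in the 3 groups (horizontal axis), with a point per library and bars for the mean ± SD of 3 libraries. INHBE lay between 1.03 and 1.79 CPM in RBM5 KO and between 34.8 and 39.5 in RBM5 OE, and SMAD7 lay between 28.4 and 28.8 CPM in RBM5 OE against 9.15 to 11.5 in CTRL.

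INHBE was lowest in RBM5 KO and highest in RBM5 OE. The gene lies on chromosome 12 of GRCh37, plus strand, at chr12:57846106-57853063. An opposite-strand lncRNA, which has no row in the tables, overlaps its end (chr12:57851379-57856601), and counting without strand cannot separate reads of that overlap. The INHBE level was 12.5, 10.8 and 4.93 CPM in the CTRL libraries, 1.79, 1.33 and 1.03 in RBM5 KO, and 36.6, 39.5 and 34.8 in RBM5 OE. The groups did not overlap, although CTRL replicate 3 lay well below the other CTRL libraries. Against the same CTRL libraries, the log2 fold change of INHBE was −2.76 (standard error 0.365) for RBM5 KO and 1.98 (0.232) for RBM5 OE. Without CTRL replicate 3 the values were −3.07 and 1.66, and without it and KO replicate 1 the first was −3.30. The counts behind them were 28 to 49 per library in RBM5 KO and 920 to 1117 in RBM5 OE.

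The deposited TPM gave a smaller difference for RBM5 KO. INHBE was at 8.93, 5.62 and 2.59 TPM in CTRL, 1.05, 1.61 and 0.97 in RBM5 KO, and 22.7, 29.9 and 21.0 in RBM5 OE. The mean of CTRL was 6.83-fold that of RBM5 KO in CPM and 4.72-fold in TPM, while RBM5 OE was 3.92-fold above CTRL in CPM and 4.29-fold in TPM. On the log2(TPM + 1) scale the RBM5 KO difference was −1.50. The expected counts that made up 1 TPM of INHBE ranged from 22.4 to 50.2 over the 9 libraries, a 2.24-fold spread, compared with 1.2-fold for INHBA. RSEM divides by an effective length that depends on which annotated transcripts receive the reads, and 4 transcripts of INHBE are annotated in the GRCh37 gene set used here.

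INHBA, which encodes the βA subunit, rose in RBM5 OE. Its level was 45.4, 37.6 and 52.3 CPM in CTRL, 52.1, 52.9 and 54.0 in RBM5 KO, and 74.7, 74.5 and 66.6 in RBM5 OE. All RBM5 OE libraries lay above all others, while RBM5 KO overlapped CTRL. The log2 fold change in RBM5 OE was 0.68 (standard error 0.108, adjusted p = 0.000535 by edgeR's quasi-likelihood test), and every alternative kept the call. Against RBM5 KO it was 0.44 (0.106, adjusted p = 0.00655). In RBM5 KO the value was 0.24 (0.120, adjusted p = 0.359), and without CTRL replicate 3 and KO replicate 1 it was 0.37 (adjusted p = 0.0212). The gene lies on the minus strand of chromosome 7, at chr7:41706766-41745432 in GRCh37, and the antisense gene INHBA-AS1 overlaps it. The tables were counted without strand, so reads from the overlap cannot be told apart.

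Of all tested genes, 19.8% rose and 20.2% fell in RBM5 OE, so a call in that comparison is common. In RBM5 KO 0.837% rose and 1.67% fell. Between RBM5 OE and RBM5 KO the shares were 19.5% higher and 20.6% lower in RBM5 OE. Groups without overlap were also common. Against CTRL, all RBM5 OE libraries lay higher for 25.9% of tested genes and lower for 25.8%. For RBM5 KO against CTRL these shares were 10.8% and 12.1%, and for RBM5 OE against RBM5 KO 26.8% and 25.9%. Of the 8 members tested in RBM5 OE, INHBA and SMAD7 rose, none fell, 4 were not called, and INHBE and FST were not put to the test. Of the 7 tested in RBM5 KO, FST was under the threshold but is given as a description only, for the limits stated beside its values. INHBE was not put to the test. The other 5 were not called, none of them at an unadjusted p under 0.05, and DESeq2 called no member other than FST. The median log2 fold change of all tested genes was 0.0131 in RBM5 OE and 0.0111 in RBM5 KO.

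INHBC and INHBE are neighbours on the same strand, with 260 bases between the annotated end of INHBC (chr12:57828567-57845845) and the start of INHBE. INHBC had 13, 22 and 3 counts in the CTRL libraries, 3, 0 and 0 in RBM5 KO, and 27, 36 and 25 in RBM5 OE. The RBM5 OE libraries were all above the CTRL libraries, and CTRL replicate 3 and KO replicate 1 held equal counts. Summed per group and scaled to library size, CTRL was 13.4-fold above RBM5 KO (95% exact interval 4.25 to 67.8, counting error only), and RBM5 OE was 2.19-fold above CTRL (1.48 to 3.29). INHBC did not reach the count filter in RBM5 KO with CTRL and was not tested there. In RBM5 OE against CTRL its log2 fold change was 1.12 (standard error 0.510, adjusted p = 0.103), with adjusted p = 0.0353 without CTRL replicate 2, 0.0421 with no filter on low counts, and up to 0.261 over the alternatives. INHBC passed the filter there only through the RBM5 OE libraries, where its counts were high, and these adjusted p values carry that limit. The summed counts of RBM5 OE were 29.2-fold those of RBM5 KO (9.68 to 145), given with no test because INHBC passed the filter only through libraries where it was high. For every 100 counts of INHBE, INHBC had 4.08, 7.94 and 2.31 in the CTRL libraries, 6.12, 0 and 0 in RBM5 KO, and 2.7, 3.22 and 2.72 in RBM5 OE. CTRL replicate 3 lay below all RBM5 OE libraries, and the RBM5 KO value rests on replicate 1 alone, with 3 counts of INHBC. Whether INHBC reads come from its own transcript or from transcription between the neighbours was not tested.

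INHBB, the βB subunit gene (chr2:121103712-121109379, plus strand), was essentially not detected. It had 1 count in CTRL replicate 1, 1 count in RBM5 OE replicate 2 and 0 in the other 7 libraries. With 3 counts as the limit that a count of 0 allows, those libraries could hold up to 0.109 to 0.117 CPM.

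The makeup of β subunit transcripts followed from these levels. INHBE made up 40.7%, 35.0% and 15.6% of the summed TPM of the 4 β subunit genes in CTRL. It was 6.80%, 10.7% and 6.15% in RBM5 KO and 52.9%, 59.8% and 51.6% in RBM5 OE. The sum itself was 21.9, 16.04 and 16.7 TPM in CTRL, 15.5, 15.1 and 15.8 in RBM5 KO, and 43.0, 49.9 and 40.6 in RBM5 OE. Thus the RBM5 KO sums lay just below the CTRL sums, and the RBM5 OE sums lay above both. These shares and sums depend on the TPM of INHBE, for which 1 TPM stood for 22.4 to 50.2 counts. INHA, the α subunit gene that turns these subunits into inhibins, averaged at most 0.0123 CPM in any group and was not tested.

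**Figure D2:**
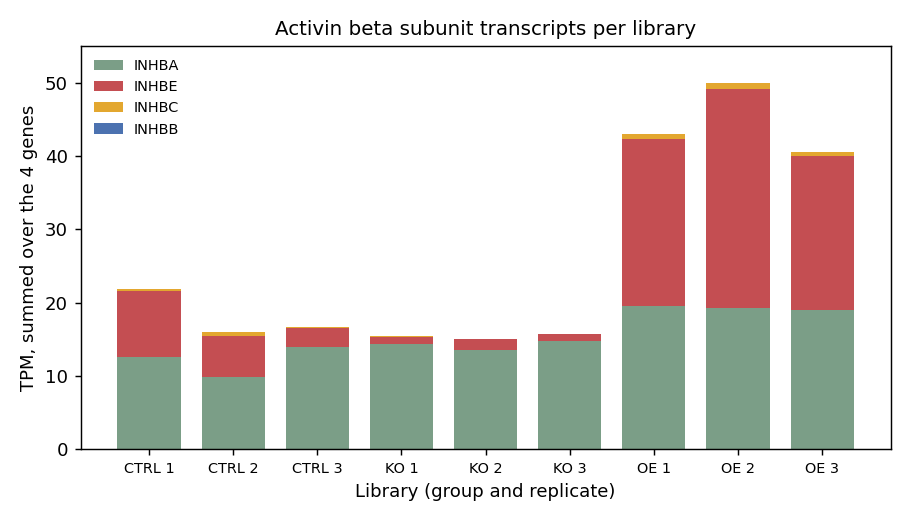
TPM of INHBA, INHBE, INHBC and INHBB (vertical axis, stacked from 0) in each of the 9 libraries (horizontal axis). The INHBA part was 9.89 to 14.8 TPM in CTRL and RBM5 KO, and the INHBE part grew to 21.0 to 29.9 TPM in RBM5 OE.

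FST, which encodes follistatin, was lowest in CTRL and higher in both other groups. Its level was 0.511, 0.234 and 0.228 CPM in CTRL, 1.38, 1.66 and 1.58 in RBM5 KO, and 5.30, 3.68 and 4.05 in RBM5 OE. No library of a group overlapped those of another, and the counts were only 6 to 13 per library in CTRL, 38 to 45 in RBM5 KO and 104 to 145 in RBM5 OE. FST was chosen on its RBM5 OE values against CTRL, and the RBM5 KO contrast shares those low CTRL libraries, so its test is not independent of the choice. FST also passed the count filter there only through the RBM5 KO libraries. The adjusted p values of this contrast are therefore given as a description only. With these limits, the RBM5 KO difference was 2.24 on the log2 scale (standard error 0.396, adjusted p = 0.0242 by edgeR). The call was lost without CTRL replicate 1 (adjusted p = 0.0598), CTRL replicate 2 (0.133), CTRL replicate 3 (0.0752), KO replicate 2 (0.104) or KO replicate 3 (0.0968), and by limma on log2(TPM + 1) (0.107). It held without CTRL replicate 3 and KO replicate 1 together (adjusted p = 0.00418) and by DESeq2 (adjusted p = 0.00133). The RBM5 OE difference from CTRL was 3.73 (0.334) and that from RBM5 KO 1.49 (0.270), given without a test. On the log2(TPM + 1) scale, which shrinks low genes, the 3 values were 0.70 in RBM5 KO, 1.55 in RBM5 OE and 0.85 between them. INHBE and FST thus differed in the direction of RBM5 KO: INHBE was below CTRL and FST above it. FST lies on the plus strand of chromosome 5, at chr5:52776456-52782964 in GRCh37. The protein-coding gene within 100 kb of it, NDUFS4, a subunit of respiratory complex I, had log2 fold changes of −0.04 in RBM5 KO (adjusted p = 0.890) and −0.0086 in RBM5 OE (adjusted p = 0.947).

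FSTL3, the follistatin relative (chr19:676392-683392, plus strand), was the more abundant antagonist and did not pass the test. It was at 4.48, 5.77 and 3.57 CPM in CTRL, 3.35, 3.47 and 4.18 in RBM5 KO, and 4.94, 4.24 and 5.41 in RBM5 OE. The CTRL range held all RBM5 OE libraries and 1 of the 3 RBM5 KO libraries, and the other 2 lay below it. The log2 fold change was −0.32 (standard error 0.223, adjusted p = 0.513) in RBM5 KO and 0.08 (0.200, adjusted p = 0.772) in RBM5 OE. Against RBM5 KO, RBM5 OE differed by 0.40 (0.204, adjusted p = 0.136). The RBM5 OE libraries all lay above the RBM5 KO libraries, as they did for 26.8% of all tested genes. In TPM, FST moved from 0.30 in CTRL to 2.84 in RBM5 OE while FSTL3 was at 4.56 and 4.95, so FST stayed below FSTL3 in the mean of every group.

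The receptors ACVR1B (chr12:52345483-52390862, plus strand) and ACVR2A (chr2:148602086-148688395, plus strand) did not pass the test in any comparison. ACVR1B was at 26.0, 28.3 and 25.5 CPM in CTRL, 28.1, 28.7 and 29.1 in RBM5 KO, and 26.2, 26.7 and 27.8 in RBM5 OE. The RBM5 OE libraries of ACVR1B all lay below the RBM5 KO libraries, as they did for 25.9% of all tested genes. Its log2 fold change was 0.11 (standard error 0.093, adjusted p = 0.603) in RBM5 KO and 0.02 (0.080, adjusted p = 0.857) in RBM5 OE, and over all alternatives it stayed between −0.014 and 0.271. ACVR2A was at 0.668, 1.68 and 0.569 CPM in CTRL, 0.802, 1.18 and 1.76 in RBM5 KO, and 1.06, 1.41 and 1.36 in RBM5 OE. With 15 to 48 counts per library, its values of 0.36 (0.478, adjusted p = 0.749) and 0.40 (0.410, adjusted p = 0.467) leave a wide margin. ORC4, a gene on the opposite strand, overlaps the end of ACVR2A, and 1 TPM of ACVR2A stood for 37.02 to 105 counts. In CTRL the mean level was 7.69 TPM for ACVR1B and 0.417 for ACVR2A.

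SMAD7, the inhibitory SMAD, rose in RBM5 OE and was level with CTRL in RBM5 KO. Its level was 10.3, 11.5 and 9.15 CPM in CTRL, 9.80, 10.0 and 11.0 in RBM5 KO, and 28.8, 28.5 and 28.4 in RBM5 OE. The RBM5 OE libraries lay far above the others and close together, and the RBM5 KO libraries lay inside the CTRL range. The log2 fold change in RBM5 OE was 1.48 (standard error 0.100, adjusted p = 2.53e-06), a 2.78-fold rise, and all alternatives kept the call with 1.35 to 1.56. Against RBM5 KO it was 1.47 (0.106, adjusted p = 2.65e-06). In RBM5 KO it was −0.0025 (0.136, adjusted p = 0.997), ranging from −0.12 to 0.078 over the alternatives. The gene lies on the minus strand of chromosome 18, at chr18:46446223-46477335 in GRCh37.

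The surroundings of INHBE were examined after the low INHBC counts in RBM5 KO had been seen. In RBM5 KO the values of the tested protein-coding genes within 100 kb differed from gene to gene. DDIT3, ARHGAP9 and DCTN2 lay closer to 0 than their standard errors (0.209, 0.1485 and 0.092). Over the alternatives DDIT3 ranged from −0.26 to 0.14. The median of all tested genes was 0.0111, so a value below 0 is common. MARS, the cytosolic methionyl-tRNA synthetase, fell in RBM5 KO by 0.90 on the log2 scale (standard error 0.154, adjusted p = 0.0208) and was at 0.17 (adjusted p = 0.149) in RBM5 OE. The RBM5 KO call of MARS was lost without CTRL replicate 1 (adjusted p = 0.134), CTRL replicate 2 (0.116), KO replicate 2 (0.0814) or KO replicate 3 (0.095). DDIT3, which encodes the stress factor CHOP, was at −0.04 (adjusted p = 0.947) in RBM5 KO and rose by 2.12 (0.162, adjusted p = 4.75e-06) in RBM5 OE. GLI1, an effector of Hedgehog signalling whose start lies 7.5 kb from that of INHBE, was at −0.88 (0.382, adjusted p = 0.285) and 0.22 (adjusted p = 0.658). In RBM5 OE, MBD6 and R3HDM2 rose by 0.51 and 0.37 (adjusted p = 0.00018 and 0.00404; 0.26 for R3HDM2 by limma on log2(TPM + 1)), and ARHGAP9 and DCTN2 were not called. In RBM5 KO, MBD6, R3HDM2, ARHGAP9 and DCTN2 were at −0.28, −0.18, −0.05 and −0.07, and edgeR called none of them (adjusted p = 0.151 to 0.903). MBD6 was called there without CTRL replicate 3 and KO replicate 1 together (adjusted p = 0.00994). KIF5A was too low to be tested.

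**Figure D3:**
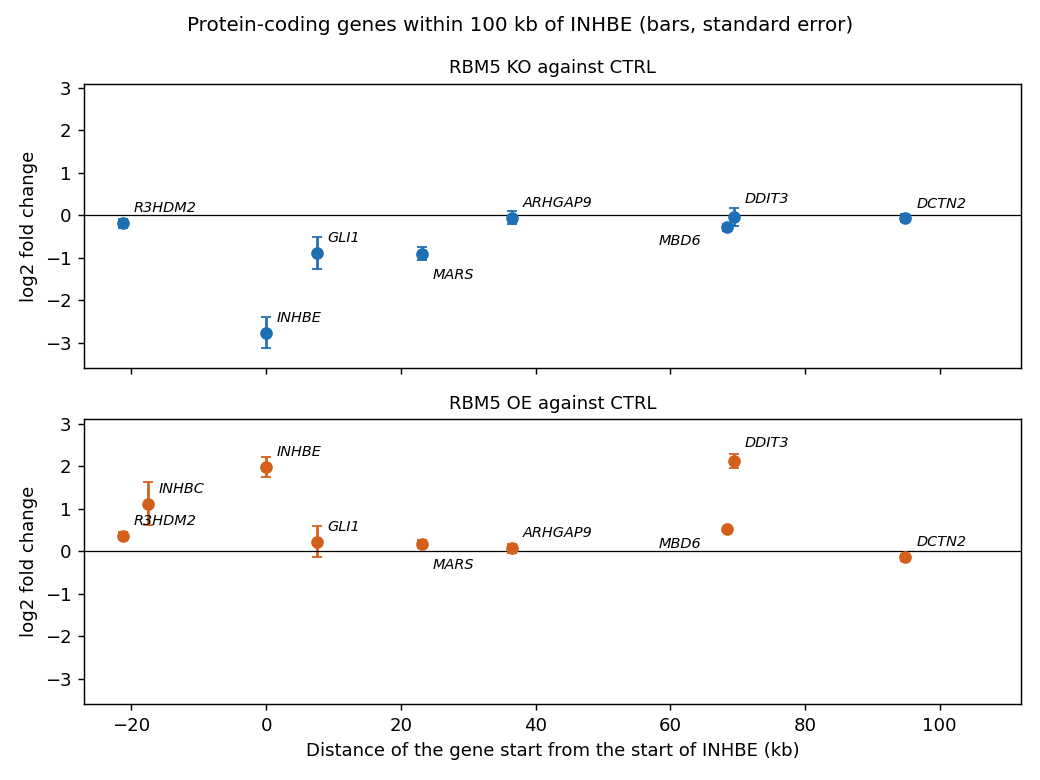
The log2 fold change against CTRL (vertical axis, bars for the standard error) of protein-coding genes within 100 kb of INHBE, by the distance of their start from that of INHBE in kb (horizontal axis), in RBM5 KO (top) and RBM5 OE (bottom). INHBE stood at −2.76 and 1.98, DDIT3 at −0.04 and 2.12, and MARS at −0.90 and 0.17; INHBC was tested only in RBM5 OE.

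INHBE is a known target of ATF4, so 9 genes of that pathway were read beside it; earlier results of these data were known when the list was made. In RBM5 KO, 6 of 8 tested genes fell and none rose, beside 1.67% of all genes that fell, with a median log2 fold change of −1.13. Asparagine synthetase (ASNS) fell by 2.05 (standard error 0.216, adjusted p = 0.00454), the pseudokinase TRIB3 by 1.26 (0.233, adjusted p = 0.0287), the transcription factor CEBPB by 1.01 (0.156, adjusted p = 0.0135) and the lipoprotein receptor VLDLR by 1.01 (0.134, adjusted p = 0.00706). The count dropped to 1 without CTRL replicate 1 or CTRL replicate 2, to 3 without KO replicate 2, to 2 without KO replicate 3 and to 3 by limma on TPM. TRIB3 and CEBPB lost the call without CTRL replicate 1 (adjusted p = 0.156 and 0.0954), CTRL replicate 2 (0.141 and 0.0792) or KO replicate 3 (0.113 and 0.0708), TRIB3 also without KO replicate 2 (0.107), and VLDLR without CTRL replicate 1 (0.0598) or CTRL replicate 2 (0.0546). ASNS kept it in every alternative. In RBM5 OE, 5 of 8 rose and none fell, beside 19.8% of all genes that rose. DDIT3 rose by 2.12, TRIB3 by 1.70 (0.204, adjusted p = 8.35e-05), SESN2, a stress-induced regulator of mTORC1, by 1.44 (0.234, adjusted p = 0.000612) and CEBPB by 1.11 (0.130, adjusted p = 6.98e-05). ASNS was not called in RBM5 OE (0.21, adjusted p = 0.0892). ATF4 mRNA was at −0.52 (adjusted p = 0.0571) in RBM5 KO, where DESeq2 (0.00146) and the fit without KO replicate 1 (0.00454) called it, and 0.15 (adjusted p = 0.121) in RBM5 OE. All 8 were higher in RBM5 OE than in RBM5 KO, against 19.5% of all genes, and both values against CTRL share the same CTRL libraries.

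Over 12623 genes whose log2 CPM averaged 0 or more, the pattern over the 9 libraries nearest to that of INHBE was that of STC2. Likeness was the root mean square difference of centred log2 CPM, which was 0.251 for STC2, 0.349 for DDIT4, 0.382 for G0S2, 0.496 for ADM2 and 0.523 for TTC39B. STC2 encodes stanniocalcin-2, DDIT4 a stress-induced inhibitor of mTORC1, G0S2 an inhibitor of the lipase ATGL and ADM2 a peptide hormone of the adrenomedullin family. The CTRL, RBM5 KO and RBM5 OE means of STC2 were 20.1, 3.22 and 76.3 CPM, compared with 9.42, 1.38 and 36.9 for INHBE. Since these genes were selected on the same libraries, their differences carry no test. For FST the nearest were MAML2 at 0.540, ADAMDEC1 at 0.559, NFKBIZ at 0.591, ADAM28 at 0.623 and TWIST1 at 0.691, farther than those of INHBE. MAML2, a coactivator of Notch, had means of 0.597, 1.73 and 8.54 CPM in the same order, and NFKBIZ, an atypical IκB protein, 8.03, 16.7 and 58.4. The 9 libraries form 3 groups, so genes that share a group pattern come near each other whatever else they share.

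**Figure D4:**
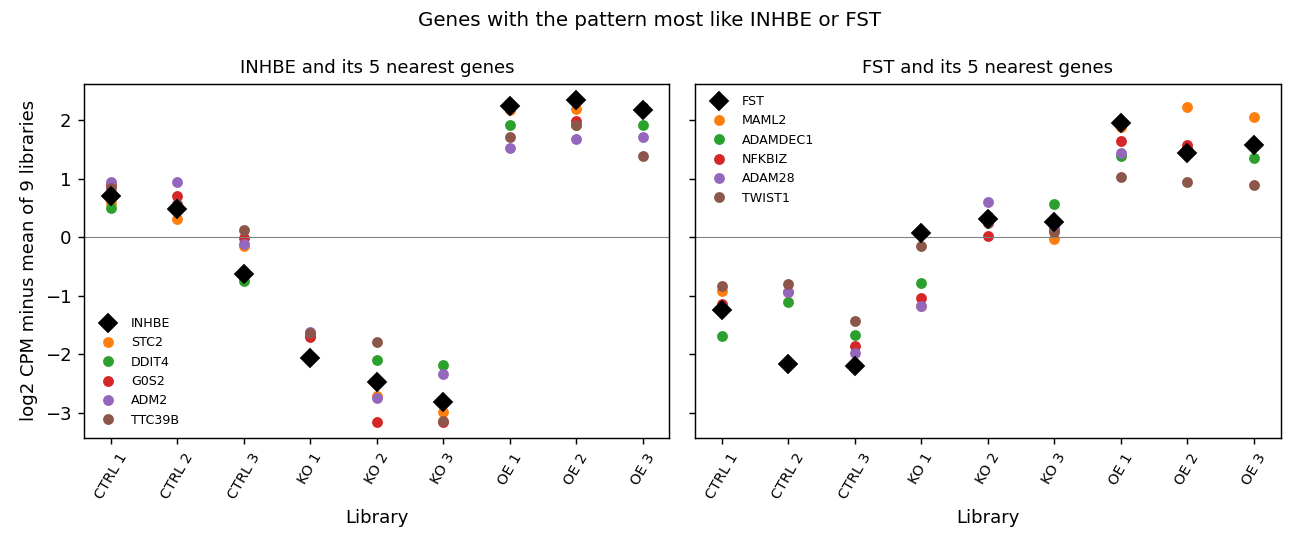
Log2 CPM minus the gene's mean over 9 libraries (vertical axis) per library (horizontal axis), for INHBE (left) and FST (right), as black diamonds, and their 5 nearest genes as circles. On average, the INHBE genes were lowest in RBM5 KO and highest in RBM5 OE, and the FST genes lowest in CTRL and highest in RBM5 OE.

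Beyond the 9 members, 70 listed genes of the wider TGF-β superfamily were read in RBM5 KO. Of 46 tested, 0 were called by edgeR, beside 2.51% of all genes. There were 6 that had an unadjusted p under 0.05 (16.8% of all genes did), and DESeq2 called only BMP2, at −0.42 (adjusted p = 0.0214). The bone morphogenetic protein gene BMP2 and the activin-related ligand gene GDF11 were called by some alternatives. In the edgeR fit GDF11 was at 1.26 (standard error 0.297, adjusted p = 0.0639) in RBM5 KO, and without KO replicate 1 at 1.55 (adjusted p = 0.000852). Without CTRL replicate 3 and KO replicate 1 together, 7 of 46 listed genes were called (15.2%), near the 13.6% of all genes called in that fit. The median log2 fold change of the 46 was 0.0417.

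In RBM5 OE, 17 of 48 tested superfamily genes rose and 4 fell, beside 19.8% and 20.2% of all genes, with a median log2 fold change of 0.0981. The 17 include TGFBR3 and CYR61, which passed the filter only through RBM5 OE, so the count carries that limit. Among 9 ligands tested, 3 rose and none fell. GDF11 rose by 0.76 (standard error 0.150, adjusted p = 0.00195). AMH at 0.88 (adjusted p = 0.0344) and TGFB2 at 1.04 (adjusted p = 0.0381) also rose, both from mean levels under 1 CPM in CTRL, and DESeq2 called neither (adjusted p = 0.0572 and 0.0549). AMH lost the call without each library other than CTRL replicate 3 (adjusted p = 0.0587 to 0.143), and TGFB2 without each other than CTRL replicate 1 (0.0621 to 0.132). Among 9 other receptors and co-receptors, 2 rose and 2 fell. The type II receptor BMPR2 rose by 1.04 (0.124, adjusted p = 7.93e-05). The co-receptor betaglycan, TGFBR3, which also binds inhibins, rose by 3.52 (0.624, adjusted p = 0.00104) from 0.0903 to 1.08 CPM. It had 0, 5 and 2 counts in CTRL and 24, 39 and 26 in RBM5 OE, passed the filter only through RBM5 OE, and lost the call by limma on log2(TPM + 1) (adjusted p = 0.053). ACVRL1 fell by 0.53 (0.141, adjusted p = 0.0110). ENG, the co-receptor endoglin, fell by 0.27 (0.084, adjusted p = 0.0262), a call lost without CTRL replicate 2, OE replicate 1 or OE replicate 2 (adjusted p = 0.086, 0.0779 and 0.131), with all 9 libraries in 1 fit (0.166) and by limma on log2(TPM + 1) (0.0963).

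Among 7 other SMADs, 3 rose in RBM5 OE and none fell, beside 19.8% and 20.2% of all genes. SMAD1, which carries BMP signals, rose by 1.44 (standard error 0.186, adjusted p = 0.000132). The activin-regulated SMADs moved less: SMAD3 rose by 0.36 (adjusted p = 0.0179) and SMAD2 by 0.21 (adjusted p = 0.0238), and limma on TPM called neither. SMAD3 lost the call with all 9 libraries in 1 fit (adjusted p = 0.0814) and without CTRL replicate 1 (0.0845), CTRL replicate 2 (0.0586) or OE replicate 3 (0.094), and SMAD2 without CTRL replicate 1 (0.0573), OE replicate 1 (0.125), OE replicate 2 (0.0707) or OE replicate 3 (0.057). Of 10 other inhibitors and co-repressors tested, 5 rose and none fell, beside the same shares of all genes. SKIL, which encodes the SMAD co-repressor SnoN, rose by 1.92 (0.130, adjusted p = 2.53e-06). NOG, which encodes the BMP antagonist noggin, rose by 0.82 (0.087, adjusted p = 3.82e-05). The co-repressor gene TGIF1 rose by 0.62 (adjusted p = 0.000276), and SMURF1, a ubiquitin ligase, by 0.40 (adjusted p = 0.00116). Neither of 2 tested proprotein convertases, the enzymes that cleave the precursors, was called by edgeR; FURIN was at −0.18 (adjusted p = 0.179), and without CTRL replicate 3 at −0.30 (adjusted p = 0.00351).

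Of 11 tested genes known as SMAD targets, 4 rose in RBM5 OE and 2 fell, beside 19.8% and 20.2% of all genes. The 4 include CYR61, whose call carries the limit of the filter given below. CTGF, a matricellular protein gene, rose by 1.90 (standard error 0.105, adjusted p = 7.43e-07), from 7.09 to 26.4 CPM. CYR61 of the same family rose by 2.30 (0.538, adjusted p = 0.00546) but reached only 0.589 CPM. It had 2 to 4 counts per library in CTRL and 12 to 21 in RBM5 OE, so it passed the filter only through RBM5 OE. It also lost the call by limma on log2(TPM + 1) (adjusted p = 0.0564). The zinc-finger gene KLF10 rose by 1.22 (0.081, adjusted p = 2.29e-06) and JUNB, an AP-1 subunit, by 0.72 (0.101, adjusted p = 0.000223). ID1, an inhibitor of differentiation that BMP signals induce, fell by 0.99 (0.272, adjusted p = 0.0127), and the cell cycle inhibitor CDKN1A fell by 0.70 (0.172, adjusted p = 0.0071). These targets are also under other controls, and the members of the list moved in both directions. In RBM5 KO none of the 10 tested targets was called.

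**Figure D5:**
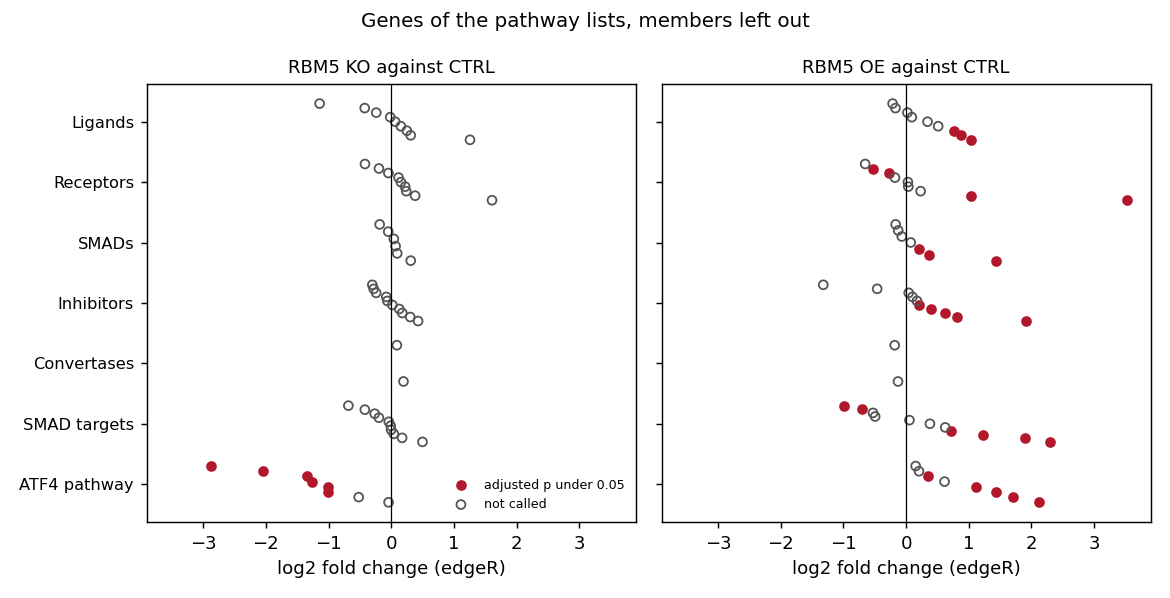
The log2 fold change against CTRL (horizontal axis) of the tested genes of each list (vertical axis), in RBM5 KO (left) and RBM5 OE (right), with filled points for genes called at an adjusted p under 0.05. In RBM5 KO filled points appear only in the ATF4 pathway list, with 6 genes below 0. In RBM5 OE 17 of 48 tested superfamily genes rose and 4 fell, beside 19.8% and 20.2% of all genes. The 17 include TGFBR3 and CYR61, which passed the filter only through RBM5 OE.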

How the data were processed

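The 9 RNA-seq libraries were grouped by their labels into CTRL, RBM5 KO and RBM5 OE. Per the deposited record, the authors depleted ribosomal RNA, used Trim Galore for trimming, STAR 2.7.1a for alignment to GRCh37 and RSEM for counting without strand, with GATK 4.1.2.0 also named, whereas the paper names Salmon. The deposited expected count values are estimates by RSEM and are not scaled between libraries. The deposited TPM values are scaled by length and library by the authors. Totals per library limit precision as given in the report, and intervals cover counting error only. The 92 spike-in rows, all at 0, were left out.

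Expected counts were rounded and tested in R 4.3.3 with edgeR 4.0.16 (filterByExpr, TMM, quasi-likelihood test), RBM5 KO and RBM5 OE each with CTRL in their 6 libraries and RBM5 OE against RBM5 KO in all 9. The Benjamini-Hochberg adjustment ran over all genes of a fit, with a call under 0.05. Every adjusted p comes from edgeR unless DESeq2 or limma is named. CPM and TPM are means ± SD. Alternatives were DESeq2 1.42.0, limma 3.58.1 on log2(TPM + 1) and log2(TPM + 0.1), other scalings, filters and sample sets, the replicate block, and leaving out libraries. The named genes are the 9 members, RBM5, up to 4 called genes of smallest p per pathway list, and the 5 genes nearest in pattern to INHBE and to FST. Others (INHBE neighbours, and uncalled or additional list genes) were named after their values were seen. The members and lists were chosen with earlier results of these data known. Promoter sequences are from RefSeq (GRCh38.p14). Of 9 members 8 had one, and INHBE is only named. Gene positions are from a GRCh37 annotation.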

Additional observations from a re-analysis of the deposited data

How the results depend on the processing

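In RBM5 KO against CTRL the number of genes called was 357 and moved with the processing: 799 by DESeq2, 615 with no filter on low counts, 891 with all 9 libraries in 1 fit, 109 on log2(TPM + 1), 105 on log2(TPM + 0.1), 154 with the replicate block, 27 to 1114 when 1 library was left out (27 without CTRL replicate 1, 1114 without KO replicate 1), and 1959 without CTRL replicate 3 and KO replicate 1 together. Of the listed superfamily genes 0 were called there, and 1 by DESeq2 (BMP2), 1 with no filter (GDF11), 3 with all 9 libraries, 0 to 2 when 1 library was left out, and 7 without both libraries; the cause was not tested. In RBM5 OE against CTRL leaving out 1 library gave 4184 to 6161 calls in place of 5756, and in RBM5 OE against RBM5 KO 4564 to 6125 in place of 5920. No named value changed direction past the threshold. Same-numbered libraries correlated at −0.242 to 0.0989 in their deviations, so the numbers were not taken as pairs. CTRL replicate 3 and KO replicate 1 correlated at 0.355, the highest value of any pair across groups. What these libraries share was not tested. The replicate block gave 5385 and 5303 calls in the RBM5 OE comparisons, and with it FST in RBM5 KO had an adjusted p of 0.0713. Depth limits INHBB, INHBC, FST and ACVR2A most.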
